A study of Mus musculus with 4 samples.

Results

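Glutathione peroxidases and peroxiredoxins were followed across cortical cell types of Gclc-KO mice by single-nucleus RNA sequencing (snRNA-seq). The genes were Gpx1, Gpx3, Gpx4, Gpx8, Prdx1, Prdx2, Prdx3, Prdx5 and Prdx6, that is 9 of the 32285 gene rows counted, picked out by their symbols. All mice were Gclc-KO, in which a floxed Gclc allele was crossed with CaMKII-Cre, so that deletion follows the activity of a promoter used mainly in excitatory forebrain neurons. They had received no treatment. Nuclei came from cortical tissue chosen for its many rod-shaped microglia, with 2 libraries made at 3 months of age (3M-1, 3M-2) and another pair at 6 months (6M-1, 6M-2). The number after the hyphen also names the batch, and values of all 4 libraries are listed in this order. No wild-type library was analysed here, so every comparison is between ages or cell types within the knockout.

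Gclc encodes the catalytic subunit of glutamate cysteine ligase, which makes the precursor of glutathione. Glutathione peroxidases spend glutathione to reduce hydrogen peroxide and lipid peroxides, whereas most peroxiredoxins reduce the same peroxides through a reactive cysteine that thioredoxin restores. In the brain, both families are counted among the main peroxide defences of neurons and glia, and Gpx4 is known as the enzyme that keeps lipid peroxides in membranes low.

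After filtering, 30515 nuclei with 59262228 to 65894316 unique molecular identifiers (UMIs) per library remained, and 20983 of them (68.8%) met a marker gate: excitatory neurons (10170 nuclei), interneurons (3655), spiny neurons (160), granule neurons (156), oligodendrocytes (4343), oligodendrocyte precursor cells (OPC, 233), astrocytes (172), microglia (2033) and vascular cells (61). Every nucleus was also assigned by genes outside the marker lists to the type with the most similar mean profile, without a cutoff. The mean profiles came from the gated nuclei themselves, so agreement with the gate is not an independent check. This assignment gave the same type for 89.9% of interneurons and 99.8% of excitatory neurons, but for 58.1% of spiny and 64.7% of granule nuclei. The nuclei are called spiny by their gate only: Drd1, Drd2 and Ppp1r1b stood at 43.5, 17.1 and 15.4 CPM in them, Pde10a was at 1401 CPM against 1490 in excitatory neurons, and they carried the interneuron genes Erbb4 (4346 CPM) and Nxph1 (996 CPM). Of the GABAergic marker list (mean 3187 CPM, UMI counts scaled to the same total in every type and library), OPC nuclei carried mainly Erbb4 and Nxph1. Pooled over libraries, these stood at 1645 and 1489 CPM, against 57.7 for Gad1, 6.66 for Gad2 and 1.11 for Slc32a1. Of the 233 OPC nuclei, 185 had 70% to 80% of their marker UMIs in the OPC list. By genes outside the marker lists, OPC numbered 258, 225, 208 and 168 per library, against 66, 52, 63 and 52 by the gate. Granule and vascular nuclei were too few for a test, since 6M-1 held 4 granule nuclei and the vascular nuclei numbered 6 to 25 per library. Gclc itself was counted in excitatory nuclei at 42.8 and 33.9 CPM at 3 months and 34.5 and 36.1 CPM at 6 months; counting at the 3' end without a wild type does not show the deletion. By edgeR's quasi-likelihood test of each type against the others, Gclc was called higher in excitatory neurons (log2 fold change 0.41, adjusted p = 0.000439), interneurons (0.36, adjusted p = 0.00348) and microglia (0.51, adjusted p = 0.000722). These values are on the UMI scale only. RNA quality was not even across libraries: ribosomal protein genes made up 0.253% of UMIs in the oligodendrocytes of 3M-1 and 0.395% to 0.411% in those of the other libraries, and 3M-1 was also lowest in the other types tested.

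Levels are given as CPM of the summed UMIs of a type in a library, and are compared for a gene between types, not between genes. The log2 fold changes rest on sums that were also scaled by edgeR's TMM factors, which the CPM were not. Fold changes and CPM can therefore order the types differently. For the comparison of types, edgeR's quasi-likelihood test set each of 7 types against the equally weighted mean of the other 6, with the mouse as a block and Benjamini-Hochberg adjustment over 13962 genes. These contrasts called a large share of all genes: 59.9% in excitatory neurons (35.8% higher and 24.1% lower), 51.7% in interneurons (31.0% and 20.7%), 29.6% in spiny neurons (20.4% and 9.18%), 57.2% in oligodendrocytes (32.3% and 24.8%), 23.0% in OPC (14.4% and 8.63%), 30.6% in astrocytes (14.0% and 16.6%) and 64.0% in microglia (32.9% and 31.1%). Of the 7 members that passed the filter on low counts, 4 were called in excitatory neurons, 3 in interneurons, 2 in spiny neurons, 3 in oligodendrocytes, 0 in OPC, 2 in astrocytes and 4 in microglia. In OPC, 1 member had an unadjusted p under 0.05, and DESeq2 called no member there. The shares of members called are near or below these backgrounds, so what follows is about direction and size.

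All the calls in excitatory neurons, interneurons and the spiny-gated nuclei were lower, all those in oligodendrocytes and astrocytes were higher, and microglia had 2 in each direction. Each type is part of the mean that the other types are set against. Higher values in glia and lower values in neurons are therefore not separate findings. The median log2 fold change of the 7 members was -0.40 in excitatory neurons, -0.36 in interneurons and -0.35 in spiny neurons, against 0.06, 0.05 and 0.03 over all genes. It was 0.82 in oligodendrocytes, 0.39 in astrocytes and 0.28 in microglia, against 0.07, -0.23 and -0.01 over all genes. The panel of 7 genes by type shows these levels.

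**Figure D1:**
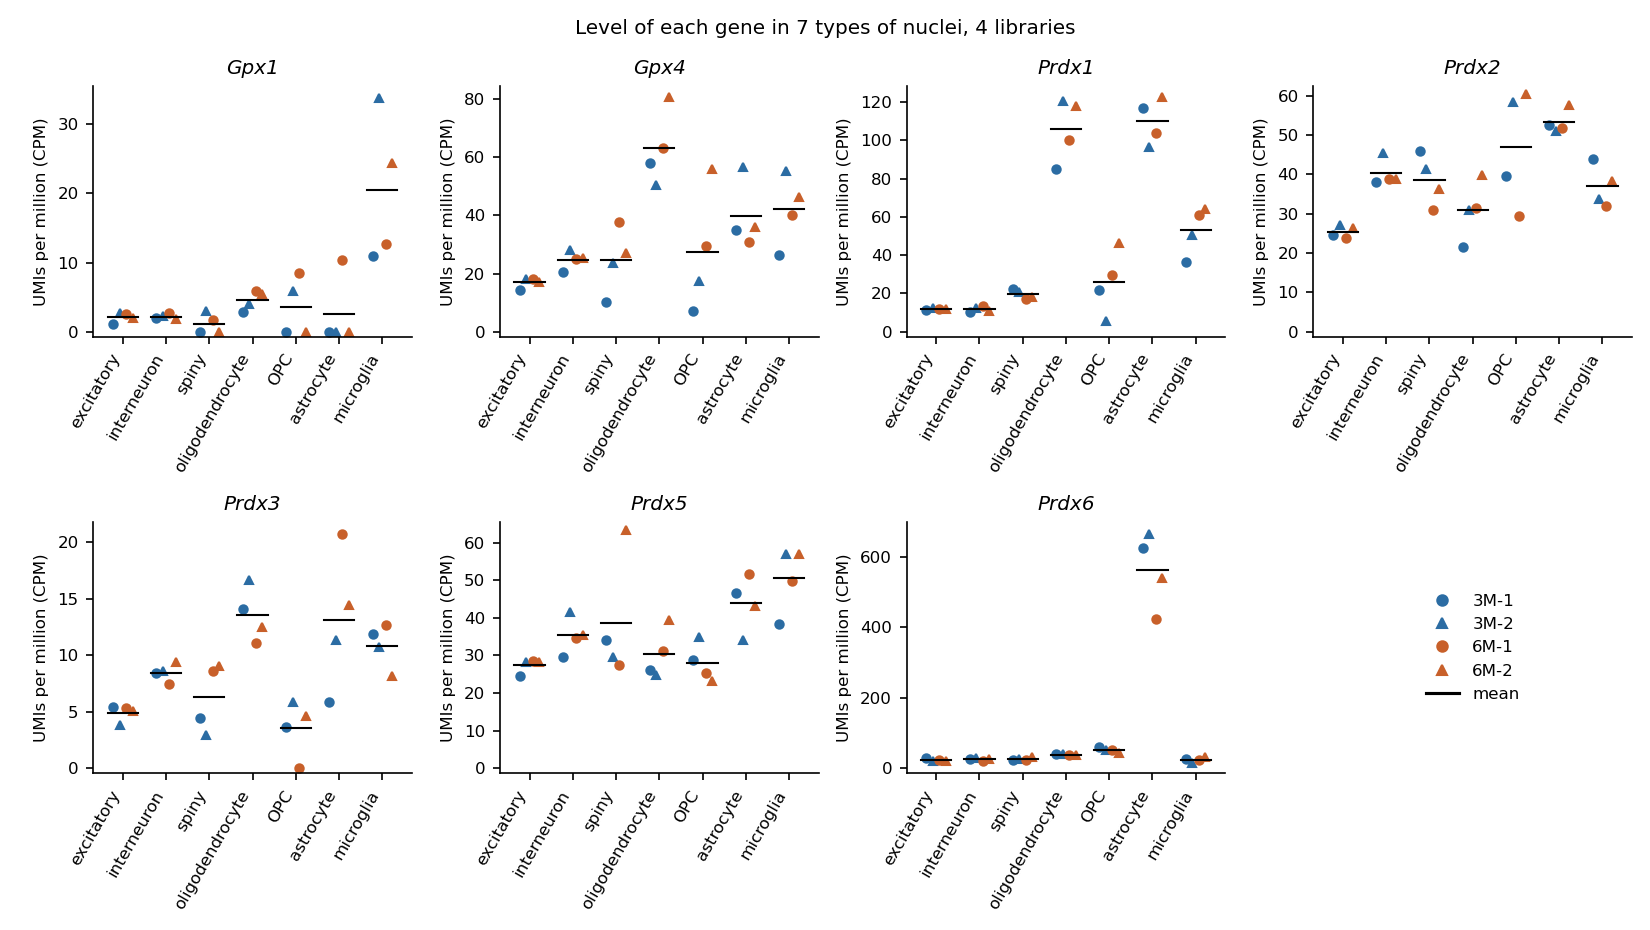
Level of each of 7 genes (y axis, CPM of the type's UMIs; the scale differs between panels) in 7 types of nuclei (x axis), with a point per library (blue 3 months, orange 6 months; circles batch 1, triangles batch 2) and a bar at the mean of the 4 libraries. Prdx6 stood at 424 to 664 CPM in astrocytes and at 61.4 CPM or less in the other types drawn, and Gpx1 at 10.98 to 33.8 CPM in microglia.

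Of the glutathione peroxidases, Gpx4, the membrane lipid peroxide reductase, was highest in oligodendrocytes. Its level there was 58.2, 50.5, 63.1 and 80.9 CPM in the 4 libraries, with a mean of 63.2 ± 12.9 CPM (SD, n = 4). Excitatory neurons had 14.5, 18.2, 18.1 and 17.1 CPM, so that the lowest oligodendrocyte library was above every excitatory one. Gpx4 was higher in oligodendrocytes than in the mean of the other types (log2 fold change 1.35, SE 0.131, adjusted p = 4.36e-11) and lower in excitatory neurons (log2 fold change -0.70, SE 0.135, adjusted p = 2.75e-05). In interneurons, at 24.7 ± 3.17 CPM, it was also called lower (-0.36, SE 0.138, adjusted p = 0.0261). This interneuron call was kept in 7 of 13 alternatives on the same scale. Fits that lost it included those without either 6-month library (adjusted p = 0.186 without 6M-1 and 0.22 without 6M-2). Microglia (42.1 ± 12.1 CPM) and astrocytes (39.7 ± 11.6 CPM) followed oligodendrocytes, and the libraries of neighbouring types in this order overlapped except between interneurons and excitatory neurons.

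Gpx1, the cytosolic glutathione peroxidase, was scarce in every tested type but microglia. Microglial libraries had 10.98, 33.8, 12.6 and 24.4 CPM, with both batch 2 libraries above both batch 1 libraries. The next type, oligodendrocytes, had 2.81, 4.02, 5.84 and 5.43 CPM and did not overlap with microglia, while excitatory neurons and interneurons had 2.10 ± 0.762 and 2.17 ± 0.399 CPM. In spiny neurons, OPC and astrocytes, only 2, 3 and 1 UMIs were counted in all. The microglial level was higher than the mean of the other types (log2 fold change 2.74, SE 0.328, adjusted p = 4.18e-09), from 81 UMIs. The only astrocyte UMI was in 6M-1. Without that library, the mean set against microglia therefore contains a type with a count of 0, and the difference of 4.25 is not a better measure. Oligodendrocytes were not called (0.82, SE 0.393, adjusted p = 0.0737) except in the same fit without 6M-1 (1.92, adjusted p = 0.0474), to which the same limit applies.

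Gpx3, the secreted plasma form, and Gpx8, a peroxidase of the endoplasmic reticulum, were at the edge of detection and did not pass the filter. Gpx3 had 22 UMIs in 10170 excitatory nuclei, 13 in interneurons, 3 each in oligodendrocytes and microglia, 1 each in spiny neurons and astrocytes, and 0 in OPC, where 3 counts would correspond to 3.33 CPM. Its excitatory level was 0.290 and 0.244 CPM at 3 months and 0.118 and 0.0761 CPM at 6 months, which did not overlap but rested on 9, 8, 3 and 2 UMIs. Gpx8 had 11 UMIs in excitatory neurons, 7 in interneurons and 3 or fewer in each other type. In vascular nuclei 3 UMIs of Gpx8 were found in 61 nuclei. Gpx8 overlaps Cdc20b on the opposite strand. In GRCm38 the genes lie at chr9:108338903-108340343 (Gpx1), chr11:54902453-54910377 (Gpx3), chr10:80047166-80056439 (Gpx4) and chr13:113042753-113046410 (Gpx8).

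Prdx6, a peroxiredoxin with a single active cysteine that uses glutathione and also acts on phospholipids, stood apart in astrocytes. Astrocyte libraries had 625, 664, 424 and 540 CPM, a mean of 564 ± 106 CPM. OPC followed with 61.4, 52.5, 50.5 and 41.9 CPM, then oligodendrocytes with 40.1, 39.6, 37.1 and 37.7 CPM, and the libraries of these 3 types did not overlap. Spiny neurons (26.5 ± 3.68 CPM), interneurons (25.9 ± 3.56), microglia (24.0 ± 7.15) and excitatory neurons (23.3 ± 3.36) overlapped with each other. The astrocyte level was higher than the mean of the other types by 4.08 on the log2 scale (SE 0.132, adjusted p = 6.22e-24), where the median of all genes was -0.23. Prdx6 was called lower in microglia (log2 fold change -1.34, SE 0.155, adjusted p = 1.96e-09), spiny neurons (-0.94, SE 0.215, adjusted p = 0.000746), interneurons (-0.94, SE 0.105, adjusted p = 1.88e-09) and excitatory neurons (-0.82, SE 0.0971, adjusted p = 3.84e-09). The mean these types were set against contains the astrocytes. With the stricter marker gate, under which astrocytes were too few to enter, the excitatory and interneuron differences were -0.07 (adjusted p = 0.67) and -0.12 (adjusted p = 0.468), and oligodendrocytes became higher (0.87, adjusted p = 6.56e-05).

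Prdx1, a cytosolic peroxiredoxin restored by thioredoxin, was high in astrocytes and oligodendrocytes and low in neurons. Astrocyte libraries had 117, 96.5, 104 and 122 CPM and oligodendrocyte libraries 85.1, 121, 100 and 118 CPM, and these overlapped. Microglia stood apart below oligodendrocytes with 36.6, 50.7, 60.9 and 64.3 CPM, and excitatory neurons and interneurons had 12.0 ± 0.562 and 11.7 ± 1.45 CPM. Prdx1 was higher in oligodendrocytes (log2 fold change 2.07, SE 0.0964, adjusted p = 5.71e-20), astrocytes (1.85, SE 0.228, adjusted p = 2.87e-08) and microglia (0.47, SE 0.134, adjusted p = 0.00255). The microglial call was lost without 6M-1 (0.37, adjusted p = 0.0633). It was lower in interneurons (-1.73, SE 0.128, adjusted p = 7.77e-14), excitatory neurons (-1.40, SE 0.115, adjusted p = 5.51e-13) and spiny neurons (-0.78, SE 0.237, adjusted p = 0.0109). The spiny call was lost without either 6-month library, at an adjusted p of 0.132 without 6M-1 and 0.0543 without 6M-2.

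Prdx1 and Gpx1 were the members called higher in microglia, and the 250 bases before their RefSeq starts are shown for that reason (GRCm38.p6, both on the plus strand). Prdx1 lies on chromosome 4, with the shown bases at chr4:116685349-116685598, and Gpx1 on chromosome 9, with the shown bases at chr9:108338830-108339079. Capitals mark a match to the antioxidant response element, searched as TGACNNNGC on both strands; it is the site bound by Nrf2, the factor that turns on many antioxidant genes. The match in Prdx1 is on the minus strand and starts 133 bases before the RefSeq start. For both genes the RefSeq start lies downstream of the GENCODE gene start given in this report, so part of the shown bases lies inside the gene as GENCODE draws it.
Prdx1: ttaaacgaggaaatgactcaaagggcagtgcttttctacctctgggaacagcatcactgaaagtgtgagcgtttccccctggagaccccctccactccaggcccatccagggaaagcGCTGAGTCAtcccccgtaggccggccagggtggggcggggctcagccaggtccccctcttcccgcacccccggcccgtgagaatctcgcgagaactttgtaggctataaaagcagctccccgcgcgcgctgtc
Gpx1: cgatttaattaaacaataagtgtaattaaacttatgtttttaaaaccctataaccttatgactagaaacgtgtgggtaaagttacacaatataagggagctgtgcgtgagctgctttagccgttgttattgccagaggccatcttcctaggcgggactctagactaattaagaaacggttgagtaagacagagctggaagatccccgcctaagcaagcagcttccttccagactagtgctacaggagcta
The letters were found within 250 bases before and 50 after the start in 12.4% of 32851 promoters, and among the 8 members with a promoter entry only in Prdx1. A GC box, searched as GGGCGG on both strands, was found in 35.7% of promoters and in 7 members, namely Gpx1, Gpx3, Gpx4, Prdx1, Prdx2, Prdx3 and Prdx5. The Gpx1 window held 42.0% G and C with 7 CpG dinucleotides, and the Prdx1 window 61.6% with 15. No binding was measured in these mice. The promoter of Prdx6 is not shown.

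Prdx3, the peroxiredoxin of mitochondria, was called in oligodendrocytes, which had 14.0, 16.7, 11.1 and 12.5 CPM (log2 fold change 1.08, SE 0.21, adjusted p = 3.78e-05). Astrocytes (13.1 ± 6.2 CPM) and microglia (10.9 ± 1.97 CPM) overlapped with them, and excitatory neurons had 4.91 ± 0.723 CPM. Prdx2, a cytosolic peroxiredoxin abundant in neurons and red blood cells, overlapped between every pair of neighbouring types in its order. Its means ran from 25.4 ± 1.54 CPM in excitatory neurons to 53.3 ± 2.97 CPM in astrocytes, and these end types lay apart. It was called lower in excitatory neurons (-0.35, SE 0.092, adjusted p = 0.0012, and 0.0637 under the stricter gate) and microglia (-0.36, SE 0.134, adjusted p = 0.0201). In CPM, microglia (mean 37.0) were not below oligodendrocytes (mean 31.0), which were not called, so the microglial call depends on the TMM scale. The microglial call was kept in only 5 of 13 alternatives on the same scale. Fits that lost it included those without 3M-2 (adjusted p = 0.337), without 6M-1 (0.0584) and without 6M-2 (0.0908). Prdx5, found in mitochondria, peroxisomes and the cytosol, was called in no type with the settings used throughout and ran from 27.4 ± 1.90 CPM in excitatory neurons to 50.5 ± 8.74 CPM in microglia, whose difference of 0.28 (SE 0.132, adjusted p = 0.0635) was called in 7 of 13 alternatives on the same scale. These were DESeq2 (adjusted p = 0.0353), RLE size factors (0.0341), profile-based types (0.027), leaving out deep nuclei (0.0153), all deposited barcodes (0.00705), and leaving out 3M-1 (0.04) or 3M-2 (0.0368); scaled by nuclei it turned to -0.87. Prdx2 overlaps Rnaseh2a and Junb, and Prdx5 overlaps Trmt112, on opposite strands. The peroxiredoxin genes lie at chr4:116685544-116700822 (Prdx1), chr8:84969587-84974834 (Prdx2), chr19:60864051-60874556 (Prdx3), chr19:6906697-6910106 (Prdx5) and chr1:161240112-161251219 (Prdx6).

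Markers of other cell types were counted in each type. The 8 excitatory markers summed to 1373 CPM in excitatory neurons, 184.7 in microglia, 169.9 in oligodendrocytes and 91.4 in astrocytes. The 8 astrocyte markers summed to 4864 CPM in astrocytes, 369 in microglia, 129 in oligodendrocytes and 10.2 in excitatory neurons. Pooled over libraries, Slc1a3 alone stood at 357.5 CPM in microglia and 123.6 CPM in oligodendrocytes, so the sums in these types rested almost only on that gene. Whether these counts are RNA of other cells, and their part in the levels of the peroxidases, was not tested.

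The directions depended on the scale for several members, since neuronal nuclei held more UMIs. Scaled by the number of nuclei instead of UMIs, the median of all genes moved to 1.13 in excitatory neurons, 1.00 in interneurons, 1.31 in spiny neurons, -1.28 in oligodendrocytes, -0.40 in OPC, -0.70 in astrocytes and -1.16 in microglia (log2). The higher Gpx4 in oligodendrocytes was then no longer called (0.0031, adjusted p = 1). Gpx4 had 19.6 ± 1.99 UMIs per 100 excitatory nuclei and 15.9 ± 4.67 per 100 oligodendrocytes, and Prdx2 had 36.5 ± 1.89 per 100 interneurons and 7.90 ± 1.99 per 100 microglia. Prdx6 in astrocytes (197 ± 57.9 UMIs per 100 nuclei, log2 difference 3.60), Prdx1 in astrocytes (38.8 ± 11.6, 1.38) and oligodendrocytes (26.1 ± 3.54, 0.73) and Gpx1 in microglia (4.2 ± 1.91, 1.59) remained called higher on both scales. Prdx1 in microglia turned to -0.69 (adjusted p = 5.83e-05), which is still above the median of all genes there. Prdx1 in excitatory neurons and interneurons stayed lower on both scales, as did Prdx6 in microglia, and the plot of type differences shows both scales side by side.

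**Figure D2:**
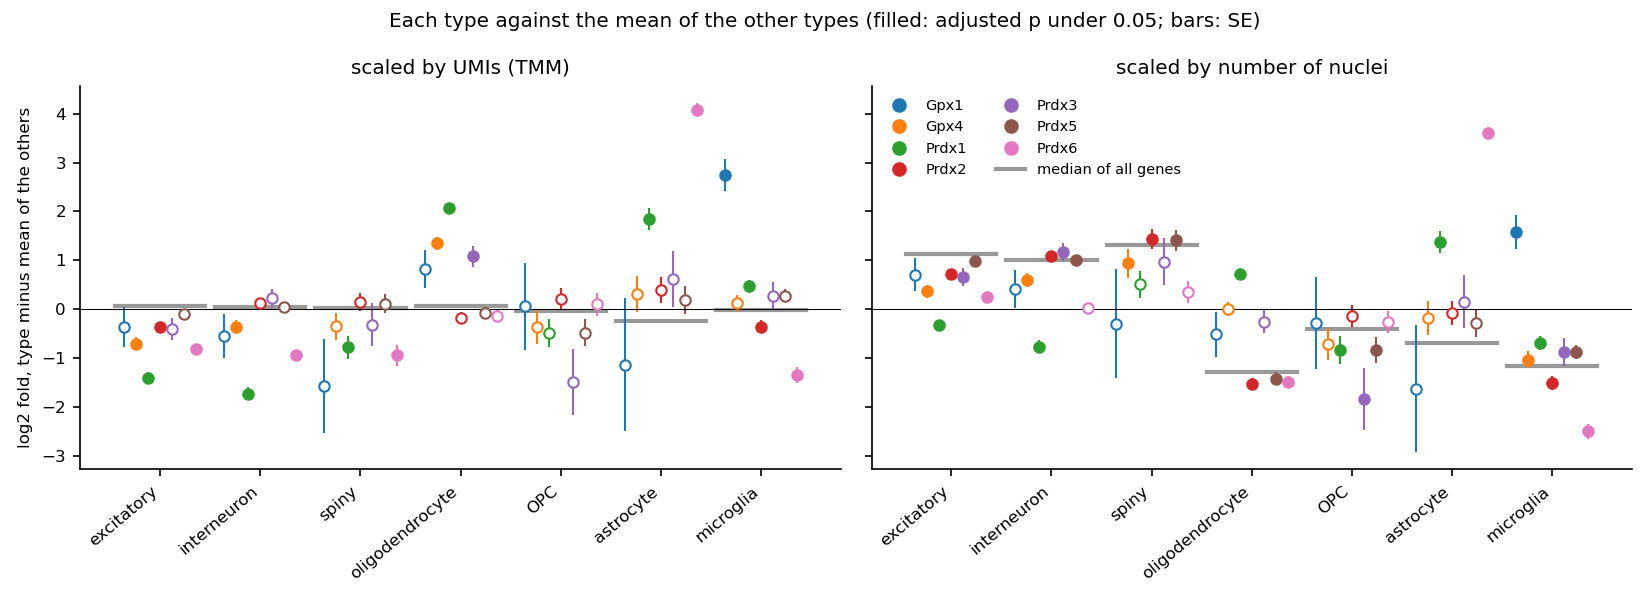
Log2 fold change of each type against the mean of the other 6 types (y axis) for 7 genes (colours) with sums scaled by UMIs (left) or by the number of nuclei (right); bars are standard errors, filled points have an adjusted p under 0.05, and grey lines mark the median of 13962 genes. Prdx6 in astrocytes is at 4.08 on the left and 3.60 on the right.

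For the comparison of ages, which asks whether peroxide defence genes changed as the knockout mice grew from 3 to 6 months, no member was called in any type by edgeR's quasi-likelihood test. The members tested were 7 in excitatory neurons, interneurons, oligodendrocytes and microglia, 4 in spiny neurons and 2 each in OPC and astrocytes. None of them had an unadjusted p under 0.05, and DESeq2 called 0. The test called few genes of any kind: 0.0% in excitatory neurons, interneurons, spiny neurons, OPC and astrocytes, 0.00795% in oligodendrocytes and 0.0522% in microglia. In excitatory neurons, 1043 of 18272 genes had an unadjusted p under 0.05 and DESeq2 called 39.

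The member with the smallest p was Prdx1 in microglia. It had 36.6 and 50.7 CPM at 3 months and 60.9 and 64.3 CPM at 6 months, and the ages did not overlap. The log2 fold change was 0.53 (SE 0.256, adjusted p = 0.733), 0.73 within batch 1 and 0.33 within batch 2. Ribosomal protein genes in microglia differed between the ages by 0.47 within batch 1 and -0.09 within batch 2 on the same scale. Of the marker lists of 6 other types, 4 were also higher in both 6-month libraries of the microglia. The oligodendrocyte list went from 106 and 118 to 148 and 181 CPM, the GABAergic list from 77.7 and 90.7 to 155 and 132, the vascular list from 14.6 and 24.6 to 61.7 and 53.7, and the astrocyte list from 353 and 231 to 466 and 427. Single genes held much of some lists in microglia pooled over libraries. These were Slc1a3 (astrocyte, 357.5 CPM), Flt1 (vascular, 35.4 CPM) and Erbb4 (GABAergic, 62.8 CPM). Whether the sums are RNA of other cells was not tested. The excitatory (155 and 194 to 163 and 226 CPM) and OPC lists overlapped between the ages, and the part of all these in the Prdx1 levels was not tested. Of microglial genes tested, 19.4% had both 6-month libraries above both 3-month libraries.

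In oligodendrocytes, 4 of the 7 members had both 6-month libraries above and 2 had both below, where 21.7% and 11.8% of the 12577 genes tested did so. Prdx5 went from 26.1 and 24.7 to 31.3 and 39.3 CPM (log2 fold change 0.39, SE 0.235, adjusted p = 0.986). Prdx2 went from 21.7 and 31.0 to 31.6 and 39.96 CPM (0.39, SE 0.244), Gpx4 from 58.2 and 50.5 to 63.1 and 80.9 CPM (0.32, SE 0.22), and Gpx1 from 2.81 and 4.02 to 5.84 and 5.43 CPM (0.67, SE 0.47). Prdx3 went the other way, from 14.0 and 16.7 to 11.1 and 12.5 CPM (-0.45, SE 0.287), as did Prdx6, from 40.1 and 39.6 to 37.1 and 37.7 CPM (-0.17, SE 0.206). All 6 had an adjusted p of 0.986, and their same sign within both batches follows from the lack of overlap between the ages. The excitatory markers in these nuclei summed to 99.1 and 208 CPM at 3 months and 158 and 214 CPM at 6 months, and their part, like that of the ribosomal share given above, was not tested.

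Prdx6 was also lower in both 6-month libraries than in both 3-month libraries in astrocytes, interneurons and OPC, as were 15.5%, 17.6% and 16.2% of the genes tested in these types. In astrocytes it went from 625 and 664 to 424 and 540 CPM (log2 fold change -0.44, SE 0.262, adjusted p = 0.992), with -0.55 within batch 1 and -0.29 within batch 2, from 32 to 64 nuclei per library. In interneurons it went from 26.6 and 30.4 to 21.8 and 24.8 CPM (-0.29, SE 0.174, adjusted p = 0.929), with -0.28 and -0.29 within the batches. In OPC it went from 61.4 and 52.5 to 50.5 and 41.9 CPM (-0.31, SE 0.454, adjusted p = 0.995). Gpx4 in spiny neurons went from 10.4 and 23.6 to 37.8 and 27.2 CPM (1.15, SE 0.552, adjusted p = 0.986), from 43 UMIs in all, where 17.0% of genes had both 6-month libraries above. Prdx2 there went from 45.9 and 41.3 to 31.0 and 36.2 CPM (-0.41, SE 0.382, adjusted p = 0.986), where 16.9% had both below. Excitatory neurons, the cells CaMKII-Cre acts in, had log2 fold changes between -0.17 (Prdx6, SE 0.21) and 0.27 (Gpx1, SE 0.436). Their Prdx1 level was 11.2 and 12.5 CPM at 3 months and 12.1 and 12.1 CPM at 6 months (0.02, SE 0.192). Prdx5 had 24.5 and 28.3 CPM at 3 months and 28.4 and 28.3 CPM at 6 months (0.10, SE 0.162), the only member tested there whose ages did not overlap, where 18.9% of genes had both 6-month libraries above.

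**Figure D3:**
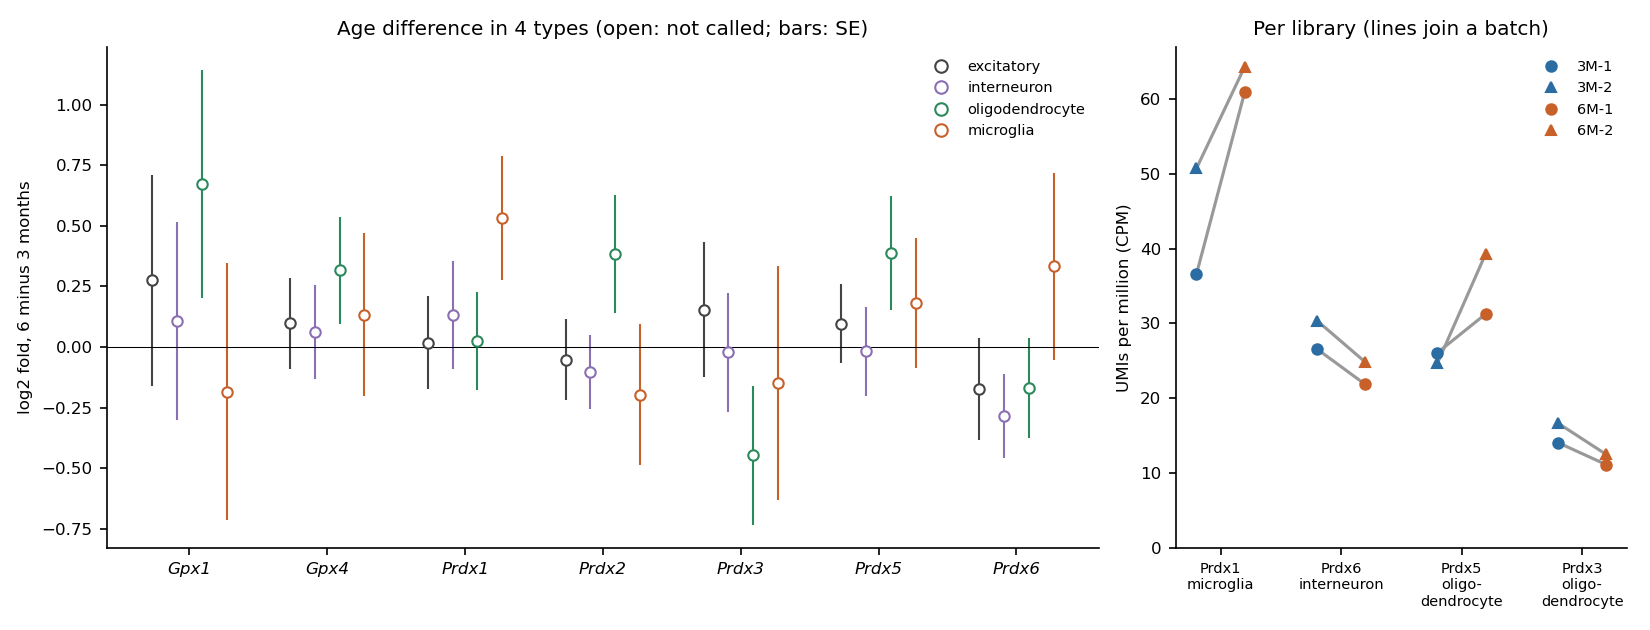
Left, log2 fold change of 6 over 3 months (y axis) for 7 genes (x axis) in 4 types of nuclei (colours) with standard errors; all points are open because none was called. Right, level per library (y axis, CPM) of 4 gene and type pairs, with lines joining the libraries of a batch; Prdx1 in microglia is at 36.6 and 50.7 CPM at 3 months and 60.9 and 64.3 CPM at 6 months.

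A test of whether the age difference depended on the type called 0 of 7 members, none with an unadjusted p under 0.05, against 0.158% of 13962 genes. The smallest p was 0.128 for Gpx4 (adjusted p = 0.874), and DESeq2 also called no member.

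Microglia were split by a gate on disease-associated microglia (DAM) markers, since the study is about such cells: nuclei with a UMI of at least 2 of 14 DAM markers, numbering 111, 57, 205 and 150 in the 4 libraries, against the other 354, 302, 464 and 390. The gate called 4.84% of 8343 genes (3.0% higher and 1.85% lower) and 0 of 6 members, of which 1 had an unadjusted p under 0.05, as had 1348 of all genes tested; DESeq2 called none. That member was Prdx1, whose DAM-gated and other nuclei were nearly level in 3M-1, at 36.8 against 36.5 CPM, and stood at 75.1 against 44.4 in 3M-2, 73.1 against 53.9 in 6M-1 and 87.0 against 52.8 in 6M-2. The log2 fold change was 0.50 (SE 0.211, adjusted p = 0.255). It was 0.76 (adjusted p = 0.0537) when nuclei were thinned to 1000 UMIs before the gate, 0.04 (adjusted p = 0.967) under the stricter type gate, and 0.87 (adjusted p = 0.0151) when scaled by nuclei, where the median of all genes was 0.37. DAM-gated nuclei were deeper, with median UMIs per nucleus of 2697, 2201, 2052 and 2242 against 2137.5, 1370.5, 1621.5 and 1952.5 in other microglia; the part of depth was not tested. Gpx1, whose level marked microglia as a whole, had 20.3 ± 18.9 CPM in DAM-gated and 21.4 ± 8.35 CPM in other microglia (-0.38, SE 0.453, adjusted p = 0.772). Gpx4 (-0.06, SE 0.246), Prdx2 (0.16, SE 0.345), Prdx5 (0.17, SE 0.264) and Prdx6 (0.28, SE 0.301) had standard errors near or above their differences.

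**Figure D4:**
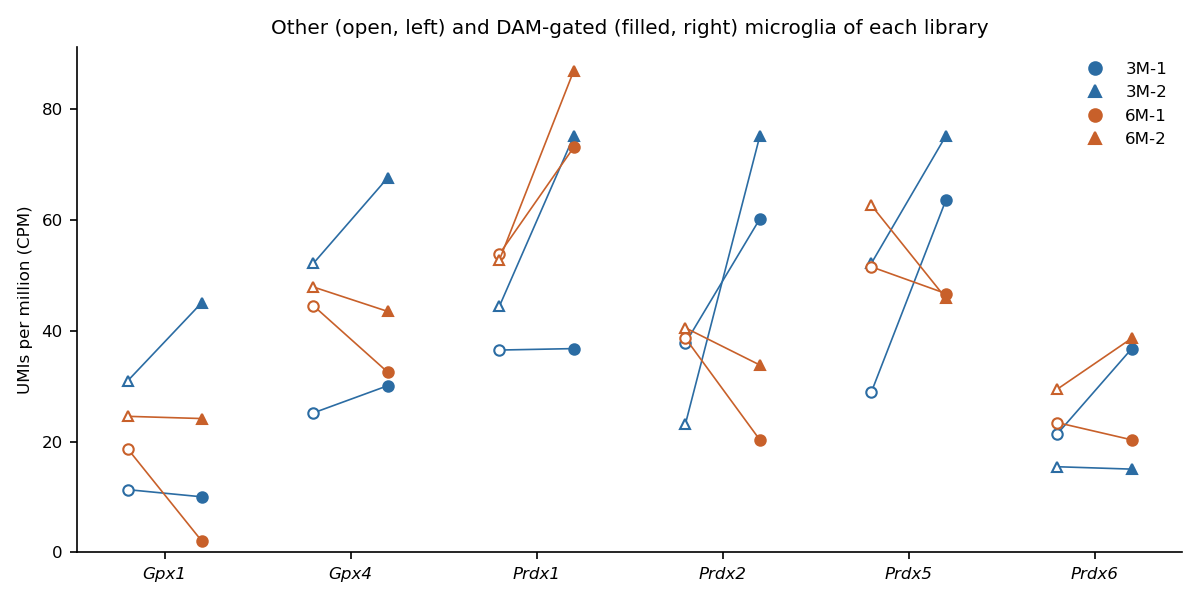
Level (y axis, CPM) of the 6 genes tested (x axis) in other microglia (open, left) and DAM-gated microglia (filled, right), with a line per library (blue 3 months, orange 6 months; circles batch 1, triangles batch 2). For Prdx1 the line of 3M-1 is nearly level, at 36.5 and 36.8 CPM, and the other lines rise.

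Oligodendrocytes with a UMI of C4b or Serpina3n, genes known from reactive glia, numbered 62 and 29 at 3 months and 514 and 512 at 6 months. Against the other oligodendrocytes of the same mice, 0.819% of 10872 genes were called (0.258% higher and 0.561% lower) and 0 of 6 members, none with an unadjusted p under 0.05 and none called by DESeq2. Prdx1 had 96.6 ± 19.8 CPM in the gated and 106 ± 15.5 CPM in the other nuclei (-0.03, SE 0.147), and Gpx4 had 79.6 ± 22.9 and 63.4 ± 14.3 CPM (0.01, SE 0.17). The largest difference was that of Prdx3 (-0.45, SE 0.373, adjusted p = 0.999).

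Among 33 other genes (other family members, thioredoxin and glutaredoxin, glutathione synthesis, dismutases and catalase, and selenoprotein synthesis), 0 were called between the ages in any type. Between types, 26 were tested. Of these, 9 were called higher and 4 lower in oligodendrocytes, 8 and 7 in microglia, 5 and 1 in astrocytes, 5 and 5 in excitatory neurons, 8 and 4 in interneurons, 2 and 4 in spiny-gated nuclei and 1 and 4 in OPC. In the same order, 57.2%, 64.0%, 30.6%, 59.9%, 51.7%, 29.6% and 23.0% of all genes were called. The share of the 26 called was below that of all genes in every type, so the genes named next are about direction and size. Their values are on the UMI scale only. Values scaled by nuclei, where several members changed direction, are not given for these genes. Selenop, the selenium carrier that supplies glutathione peroxidases, was called higher in microglia (95.4 ± 7.42 CPM), astrocytes (75.2 ± 33.2) and oligodendrocytes (66.1 ± 4.04), and lower in excitatory neurons, at 0.671 ± 0.247 CPM. Txnip, an inhibitor of thioredoxin, was called higher in the same 3 types, at 70.9 ± 12.8, 23.6 ± 7.36 and 13.3 ± 3.41 CPM. In excitatory neurons, the other genes with the smallest adjusted p were the mitochondrial dismutase Sod2 (log2 fold change 0.75), Eefsec (0.49) and Gclc (0.41), called higher, and Sepsecs (-0.54) and catalase (Cat, 3.73 to 5.18 CPM over the libraries), called lower. In interneurons they were Gss, the second enzyme of glutathione synthesis (1.32), Sod2 (1.10), Glrx (0.65) and Sesn3 (0.41), higher, and Cat (-1.06) and Sesn1 (-0.33), lower. In oligodendrocytes they were Gss (1.12) and Gclm, the partner subunit of Gclc (0.90), higher, and Glrx (-1.76) and Sesn3 (-0.52), lower. In astrocytes Gclm (1.27), Txn2 (1.07) and Sesn3 (0.98) were higher and Eefsec, which brings selenocysteine to the ribosome, was lower (-1.31). In microglia Txnrd2 (1.66) and Eefsec (0.64) were higher and Gss (-2.42) and Sesn3 (-2.30) lower. In DAM-gated microglia Txnip was called lower (44.5 ± 13.5 against 81.9 ± 14.7 CPM, log2 fold change -0.89, adjusted p = 0.0321, lower in 4 of 4 libraries), and none of the 18 genes tested was called higher. The share of the 18 called was near the 4.84% of all genes called by this gate (3.0% higher and 1.85% lower). Txnip is not given under the alternatives, and the part of depth was not tested.

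Over the 28 sums of 7 types and 4 libraries, the gene among 17708 whose log2 CPM was most like that of Prdx6 was Clu (Pearson r = 0.96), then Gm35552 (0.95) and Slc27a1 (0.95). Prdx1 was most like Glul (0.92), Trp53bp2 (0.91) and Neat1 (0.91), and Gpx1 most like Lsm10 (0.85), Zfp691 (0.82) and Dctpp1 (0.81). Gpx4 was most like Sfr1 (0.86), Arrdc3 (0.85) and 3110009E18Rik (0.80), Prdx3 most like Qars (0.87), Rrm2b (0.87) and Tuba1b (0.85), Prdx2 most like Gm14211 (0.76), Gm47710 (0.72) and Gulp1 (0.71), and Prdx5 most like Ptpn22 (0.72), Btg2 (0.72) and Nln (0.71). Gpx3 and Gpx8 had too few UMIs to enter. The sums of a library share its depth, and those of a mouse its tissue, so these values describe the patterns only.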

How the data were processed

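Single nuclei from the cortex of Gclc-KO mice were sequenced with the 10x Genomics Chromium 3' v3.1 kit. The authors made the deposited raw UMI counts with Cell Ranger (7.0.0 in the file headers); the submitters' processing notes name mm10 and Seurat. The authors' filter was applied: at most 7000 genes and at most 1% mitochondrial UMIs, which removed 269 of 30784 barcodes. A nucleus was given a type when at least 3 of 8 markers had a UMI and the list held at least 70% of the UMIs of 7 lists. Granule nuclei were instead taken by a UMI of at least 2 of 5 markers, without the 70% rule. Spiny nuclei were GABAergic nuclei with at least 3 of 8 spiny markers. No doublet caller was run. The 70% rule, not applied to granule neurons, leaves out only nuclei whose marker UMIs are spread over several lists. Mixed nuclei can pass where 1 list holds many more UMIs than another. Interneurons had a median of 65 GABAergic marker UMIs, and excitatory neurons a median of 13 excitatory marker UMIs. Any pair of libraries shared 12 to 19 barcodes. Raw counts were summed per library and type and tested with edgeR 4.0.16 (TMM, filterByExpr, quasi-likelihood) in R 4.3.3, with DESeq2 1.42.0 as an alternative; types needed 10 nuclei in every library. A figure legend of the study gives n = 2 for the samples of each age, while the labels do not say that the libraries are separate mice. The mouse block is thus a block on the library, and p-values measure the spread between these libraries. Limits from a count of 0 (3 counts) cover counting error only. All 9 members were named, with lists of 5 other family members and 28 pathway genes, of which up to 6 a type with the smallest adjusted p are named (for spiny-gated nuclei and OPC only counts are given), and the 3 genes most like each member that had enough UMIs. The members and lists were chosen with earlier results of these data known. The batch number in the labels pairs a 3-month with a 6-month library; deviations of same-numbered libraries from their age means correlated at -0.13 in excitatory neurons to 0.03 in spiny neurons, and an age fit with the number as a block changed no call of a member. Positions are from GENCODE M21, in which 32158 gene identifiers were found, and promoters from RefSeq. Scripts were tested on simulated counts. Alternatives covered size factors, filter, gate, leaving out deep nuclei, barcodes, block and leaving out each library. Leaving out deep nuclei is a cut on depth and does not detect doublets. Scaling by nuclei and a crossed block were chosen after seeing the data.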

Additional observations from a re-analysis of the deposited data

Results flagged for a closer look

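In 2 of the 47 gene and type pairs with at least 10 UMIs, a library lay far from the other 3 by Dixon's test at the 95% level, and chance marks about 1 in 20. Prdx2 in interneurons was highest in 3M-2, at 45.6 CPM against 38.1 to 38.9 CPM in the others. Prdx5 in excitatory neurons was lowest in 3M-1, at 24.5 CPM against 28.3 to 28.4 CPM, and 3M-1 also had the lowest share of ribosomal protein genes in these nuclei.

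In 4 of 12 comparisons of gated with other nuclei, the libraries of the 2 ages moved in opposite directions, and the difference between the ages was not tested. The share of all genes with this pattern was not counted, so the count is a description only. The DAM-gated sums held 299089 and 133080 UMIs at 3 months, where a difference of a few UMIs moves the CPM. In DAM-gated microglia, Prdx2 was above other microglia by a mean of 37.2 CPM at 3 months, and its mean difference at 6 months was -12.5 CPM. For Prdx5 these mean differences were 28.8 and -10.8 CPM, and for Gpx4 they were 10.2 and -8.21 CPM. In C4b/Serpina3n-gated oligodendrocytes the mean differences of Gpx4 were 37.2 and -4.71 CPM, where 3M-2 held 29 gated nuclei. None of these 4 was called over all libraries.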

How the results depend on the processing

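No member was called between the ages under any alternative, including the replicate block, which pairs libraries by batch number and left 0 members called in every type. Over all genes, the block moved the age calls from 0 to 30 in interneurons, 1 to 27 in oligodendrocytes, 6 to 13 in microglia, 0 to 1 in excitatory neurons and OPC and 0 to 2 in astrocytes. Leaving out either 3-month library moved the age calls over all genes further. Such a fit keeps 1 library at that age, so its counts are not given. Without the mouse block between types, the Gpx4 call in interneurons was lost (adjusted p = 0.104). With crossed numbers, chosen after seeing the data, 168 genes were called in excitatory neurons and 0 members. Of 1236 planned repeats of single values, 20 lost and 30 gained a call and 1 reversed, Prdx6 in oligodendrocytes under the stricter gate (0.87). A change of sign between values that were both uncalled was not counted as reversed. There were 109 of these, with scaling by nuclei and the crossed block included. The number of members called moved from 3 to 5 in interneurons with profile-based types, from 3 to 5 in oligodendrocytes under the looser gate, and from 0 in OPC to 1 under the looser gate and 2 with profile-based types. Leaving out a library gave 1 to 2 members in spiny neurons, 2 to 5 in microglia, 2 to 3 in interneurons and 3 to 4 in oligodendrocytes. In OPC under the looser gate, 4269 of all 14594 genes were called. The shares of all genes in the other fits are not given here, so these counts of members are a description only. The age by type count over all genes ran from 1 (without 6M-1) to 332 (no filter).

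Scaled by nuclei, 5 members were called in interneurons, 3 in OPC, 7 in microglia and 1 in DAM-gated microglia. For DAM-gated microglia, 1678 of all 8343 genes were called on this scale, against 404 when scaled by UMIs. The shares of all genes called between types on this scale are not given here, so these counts are a description only. Values called on either scale changed sign in excitatory neurons (Gpx4 0.37, Prdx2 0.72, Prdx3 0.66, Prdx5 0.99, Prdx6 0.26), interneurons (Gpx4 0.59, Prdx6 0.022), spiny neurons (Gpx4 0.94, Prdx1 0.51, Prdx6 0.35), oligodendrocytes (Prdx3 -0.26) and microglia (Gpx4 -1.03, Prdx1 -0.69, Prdx3 -0.87, Prdx5 -0.87). Sign changes of values uncalled on both scales are not listed. The shift of all genes given in the report is part of each change. The stricter gate left OPC, astrocytes and spiny neurons too few to be fitted, and granule neurons were not run. Depth limits Gpx3 and Gpx8 in all types and most members in OPC and astrocytes.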
